A study of Arabidopsis thaliana with 8 samples.

Results

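The comparison set unstressed enap1-1enap2 seedlings, which carry mutations in both ENAP1 and ENAP2, against unstressed seedlings of the wild type Col-0, to ask which transcripts differed before any water deficit was imposed. It was read from the 4 libraries labelled Mock, of 8 libraries in all: 2 of enap1-1enap2 Mock and 2 of Col-0 Mock. The other 4 libraries came from the same genotypes under dehydration and are used here only where the basal differences are set beside those under stress. Every group was whole seedlings of Arabidopsis thaliana grown for 10 days in long days and then treated for 4 h. Mock seedlings lay on filter paper soaked with liquid ½ MS medium, and dehydrated seedlings were exposed to 25% PEG8000, a polymer that lowers the water potential. The double mutant was a single line made by crossing enap1-1, a CRISPR/Cas9 deletion allele in Col-0, with enap2, a T-DNA insertion allele with insertions in the first exon. With a single line, effects of the mutations and any other fixed difference of that line cannot be told apart. The replicates are labelled BR and called biological replicates by the study, but nothing states whether they were separate sowings. The p-values rest on the spread between libraries, pooled over all 4 groups. RNA came from whole seedlings, and in such samples fewer cells of a type and less RNA per cell cannot be told apart.

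ENAP1 and ENAP2 are related nuclear proteins with a plant trihelix-type DNA-binding domain. ENAP1 was first described as a partner of EIN2, the central transducer of the ethylene signal, and was placed near histone acetylation at target genes. Abscisic acid, or ABA, is the hormone through which plants respond to drying: it is bound by PYR/PYL receptors, which inhibit PP2C phosphatases and so free SnRK2 kinases, and these activate bZIP transcription factors that bind a short promoter element with an ACGTG core, the ABA-responsive element. Late embryogenesis abundant proteins, dehydrins, lipid transfer proteins and enzymes of proline synthesis are classical products of that pathway.

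The libraries held 37111461 and 24624499 counted reads in enap1-1enap2 Mock, against 34814583 and 48279415 in Col-0 Mock, and 24007691 to 41431259 under dehydration. At these depths 3 counts, used here as the detection floor, correspond to 0.0608 to 0.114 CPM, the count scaled to a common library size, in the mock libraries. Intervals and floors cover counting error only. The replicates were not equally close. The 2 enap1-1enap2 Mock libraries had no gene that differed 2-fold or more between them among those averaging 5 CPM or more, whereas the 2 Col-0 Mock libraries had 48 such genes. The biological coefficient of variation fitted to each pair alone was 0.045 in enap1-1enap2 Mock and 0.139 in Col-0 Mock. The common value of the joint fit over all 4 groups was 0.0955, above that of the mutant pair and below that of the Col-0 Mock pair. The tests used a spread for each gene, drawing also on the other genes and estimated over all 4 groups. The first Col-0 Mock library also carried transcripts of storage and oil-body proteins: 11 seed marker genes summed to 1.17 and 1.14 CPM in enap1-1enap2 Mock, against 73.4 and 1.46 CPM in Col-0 Mock. Their part in the results below was not tested, so values without that library are given beside the genes described here whose call or pass it changed. A fit that leaves 1 library in a group takes its spread from the other groups. Passes and calls in such fits, with a Col-0 or a mutant library left out, are therefore not like for like with the main fit. Root markers, 19 genes expressed mainly in roots, summed to 3416.5 and 3389.8 CPM in enap1-1enap2 Mock and 3150.8 and 3063.0 CPM in Col-0 Mock. Leaf markers, 19 genes of photosynthetic tissue, summed to 39064 and 38723 CPM in enap1-1enap2 Mock and 38622 and 46390 CPM in Col-0 Mock, so both organs were present in every mock library.

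Of 36799 annotated genes, 21614 had enough counts to be tested. Both mutated genes were among those that fell, as a check of the labels. ENAP1 measured 3.81 and 5.11 CPM in enap1-1enap2 Mock, against 13.9 and 17.3 CPM in Col-0 Mock. ENAP2 measured 3.10 and 3.51 CPM in enap1-1enap2 Mock, against 9.32 and 7.76 CPM in Col-0 Mock. Neither pair of groups overlapped, as was true of 51.4% of all genes tested, and reads remained for both genes in both mutant libraries. Their log2 fold changes were -1.83 ± 0.157 (SE, n = 2 libraries per group, adjusted p = 1e-05) and -1.37 ± 0.199 (SE, adjusted p = 0.00075), by the quasi-likelihood test of edgeR, adjusted by the Benjamini-Hochberg method over all tested genes, as for every adjusted p below. The ENAP2 value has a counting limit, because 46.3% of its exon bases lie within AT5G05560, a neighbouring gene model, and reads assignable to more than 1 gene were not counted.

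A gene was called when its unadjusted p was below 0.01, its adjusted p below 0.05 and its absolute log2 fold change above 1. By this rule 290 genes (1.34% of those tested) differed between enap1-1enap2 Mock and Col-0 Mock: 84 (0.389%) were higher and 206 (0.953%) lower in the double mutant. With the adjusted p alone, 751 genes (3.47%) were higher and 799 (3.7%) lower, so most differences that passed the test were smaller than 2-fold. The called genes comprised 278 protein-coding genes, 4 pseudogenes and 8 other RNA genes. They were spread over the 5 chromosomes at 1.17% to 1.55% of the genes tested on each. Within 1 Mb of ENAP1, 2 of 506 tested genes (0.395%) were called, and within 1 Mb of ENAP2 10 of 480 (2.08%). The median log2 fold change of all tested genes was -0.0124. The number of calls depended on the libraries: 256 without the first Col-0 Mock library (185 of them among the 290), 421 without the second (247), 126 without the first enap1-1enap2 Mock library (116) and 137 without the second (125).

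Each called gene was then checked against the spread of the 2 Col-0 Mock libraries. A gene was taken as clear of that spread when all enap1-1enap2 Mock values lay on one side of all Col-0 Mock values and the gap between the nearest libraries of the groups exceeded the difference between the 2 Col-0 Mock libraries, on the log2(CPM + 0.5) scale. Of all genes tested, 25.8% were clear in this sense, and of the 290 called genes 216 (74.5%) were: 78 of the 84 higher and 138 of the 206 lower. The 2 directions therefore differed in how they stood to the wild-type spread. Only 6 of the called rises were not clear, against 68 of the called falls, and in 58 of those 68 the first Col-0 Mock library was above the second. Calls that were made again both without the first and without the second Col-0 Mock library, a check added after the data were seen, numbered 150: 54 higher and 96 lower.

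**Figure D1:**
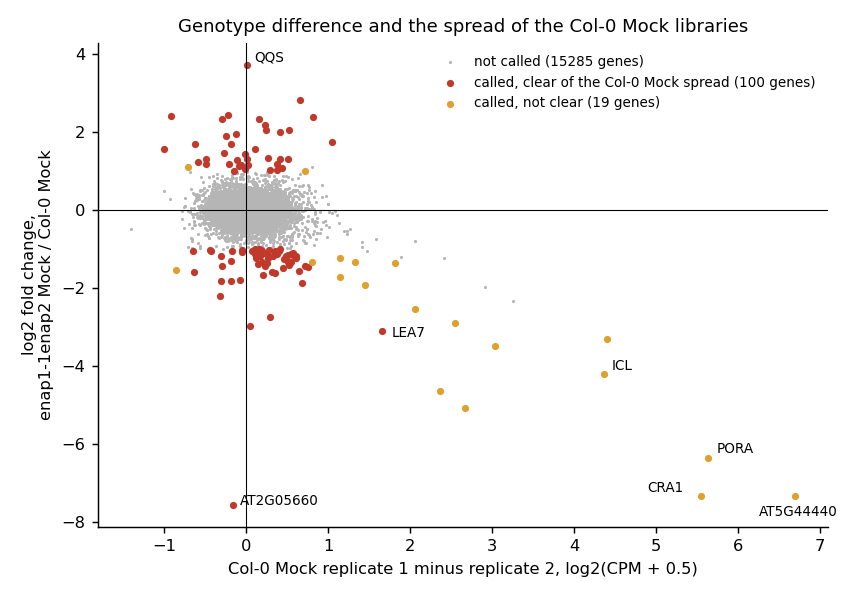
Genotype difference against wild-type spread for genes averaging 5 CPM or more in the mock libraries. The x axis is the difference between the Col-0 Mock libraries in log2(CPM + 0.5) and the y axis the log2 fold change of enap1-1enap2 Mock over Col-0 Mock. Grey points were not called, red points were called and clear (100 genes) and yellow points were called but not clear of the wild-type spread. QQS and AT2G05660 lie near 0 on the x axis, whereas AT5G44440, CRA1, PORA and ICL lie far to the right, where the first Col-0 Mock library was high.

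The plot of genotype difference against wild-type spread shows 119 called genes averaging 5 CPM or more, of which 100 were clear, 38 higher and 62 lower. Among these 100, the fall with the largest fold was that of AT2G05660, annotated as a pseudogene. It had 2 and 2 counts in enap1-1enap2 Mock, against 442 and 641 counts in Col-0 Mock, a Col-0 level 202.7 times that of the double mutant (exact 95% interval from the counts, 78.9 to 745.2). Of its 31-base stretches, 47.3% occur more than once in the genome, and reads that hit several places were not counted. The rise with the largest fold was that of QQS, an orphan gene of Arabidopsis that affects the split of carbon and nitrogen between starch and protein. QQS measured 26.0 and 23.4 CPM in enap1-1enap2 Mock, against 1.88 and 1.86 CPM in Col-0 Mock, a 13.2-fold difference (log2 fold change 3.72 ± 0.189 SE, adjusted p = 7.3e-08).

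Gene lists were drawn up from general knowledge of each pathway, but with earlier results of these data known. They are described by their counts and medians, and the shares of all genes beside them do not make them independent evidence. Genes of the ABA and drought response were lower in the unstressed double mutant. Of 31 tested members of this list, 23 passed an adjusted p of 0.05 as lower and none as higher, 6 of the 23 were also past the fold limit, and 30 had a log2 fold change below 0. The median of the list was -0.76 (range -3.50 to 0.30), beside -0.0124 over all genes. Of the 31, 20 were clear of the Col-0 Mock spread, beside 25.8% of all genes. Over all genes tested, 3.7% passed as lower and 0.953% were called lower. The list median was -0.77 without the first Col-0 Mock library, which carried the seed transcripts, and -0.71 without the second. Leaving out the first or the second enap1-1enap2 Mock library left 13 or 16 members past the threshold.

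At the head of the pathway, NCED3, which makes the committed step of ABA synthesis, measured 7.06 and 6.26 CPM in enap1-1enap2 Mock, against 14 and 14.5 CPM in Col-0 Mock. Its log2 fold change was -1.09 ± 0.108 (SE, adjusted p = 3.5e-05). CYP707A1, which breaks ABA down, fell by 0.87 on the log2 scale (adjusted p = 0.0015), and was called without the second Col-0 Mock library (log2 fold change -1.11). Both the synthetic and the catabolic enzyme therefore had fewer transcripts in the mutant. In both, the groups did not overlap, as in 51.4% of all genes tested. Of 6 listed PP2C phosphatases, which restrain the pathway, 4 passed as lower: HAI1 had a log2 fold change of -0.82, HAI2 -0.93, ABI1 -0.53 and ABI2 -0.54 (adjusted p = 0.00026, 0.0026, 0.002 and 0.0022). HAB1 (-0.28, adjusted p = 0.083) and HAI3 (-1.64, adjusted p = 0.15) did not pass with all libraries, but both passed without the second Col-0 Mock library (-0.32 and -2.55).

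Of the transcription factors in the list, the 4 described here followed the same direction with smaller changes. ABF4, NAC019 and NAC055 of the list are not described. RD26, a NAC factor induced by drying, measured 11 and 12 CPM in enap1-1enap2 Mock, against 21.0 and 20.7 CPM in Col-0 Mock (log2 fold change -0.86 ± 0.0992 SE, adjusted p = 0.00012). ABF3, a bZIP factor that binds the ABA-responsive element, measured 48.9 and 53.0 CPM in enap1-1enap2 Mock, against 88.3 and 79.5 CPM in Col-0 Mock (log2 fold change -0.72, adjusted p = 0.0003). The homeodomain factors HB7 and HB12 had log2 fold changes of -0.76 and -0.82 (adjusted p = 0.00018 and 0.00036). For each of these 4 genes every mutant library was below every Col-0 Mock library. Such a lack of overlap, in either direction, was found for 51.4% of all genes tested. ABI5, the bZIP factor best known from seeds, did not pass the test (log2 fold change -0.34, adjusted p = 0.15).

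Among the protective products, RAB18, a dehydrin, measured 8.83 and 12.1 CPM in enap1-1enap2 Mock, against 24.0 and 27.3 CPM in Col-0 Mock (log2 fold change -1.31 ± 0.140 SE, adjusted p = 7.4e-05). LTP4, a lipid transfer protein, measured 1.42 and 1.07 CPM in enap1-1enap2 Mock, against 4.54 and 4.34 CPM in Col-0 Mock (log2 fold change -1.80 ± 0.176 SE, adjusted p = 3.2e-05). RD20, a calcium-binding caleosin that was not in the list but was among the 12 most significant falls, measured 9.36 and 9.84 CPM in enap1-1enap2 Mock, against 23.2 and 28.7 CPM in Col-0 Mock (log2 fold change -1.44 ± 0.120 SE, adjusted p = 7.6e-06). All 3 genes were called and clear. The abundant cold- and drought-induced transcripts KIN1, KIN2 and COR47 fell by 0.71, 0.63 and 0.69 on the log2 scale, and P5CS1, which catalyses the first step of proline synthesis, fell by 0.57.

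Some members depended on 1 wild-type library for their size. RD29A, a hydrophilic stress protein, measured 339 and 340 CPM in enap1-1enap2 Mock, against 552 and 866 CPM in Col-0 Mock (log2 fold change -1.06 ± 0.155 SE, adjusted p = 0.00077), and without the second Col-0 Mock library it was below the fold limit (-0.71). Its relative RD29B measured 1.93 and 2.29 CPM in enap1-1enap2 Mock, against 43.2 and 4.82 CPM in Col-0 Mock. TSPO, a membrane protein induced by ABA, measured 2.28 and 1.83 CPM in enap1-1enap2 Mock, against 12.3 and 4.18 CPM in Col-0 Mock. RD29B and TSPO were called, with no overlap between groups, but neither was clear of the wild-type spread. The log2 fold change of RD29B was -3.50 with all libraries and -1.21 without the first Col-0 Mock library, and that of TSPO was -1.94 and -0.995, the second just inside the fold limit and no longer called.

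**Figure D2:**
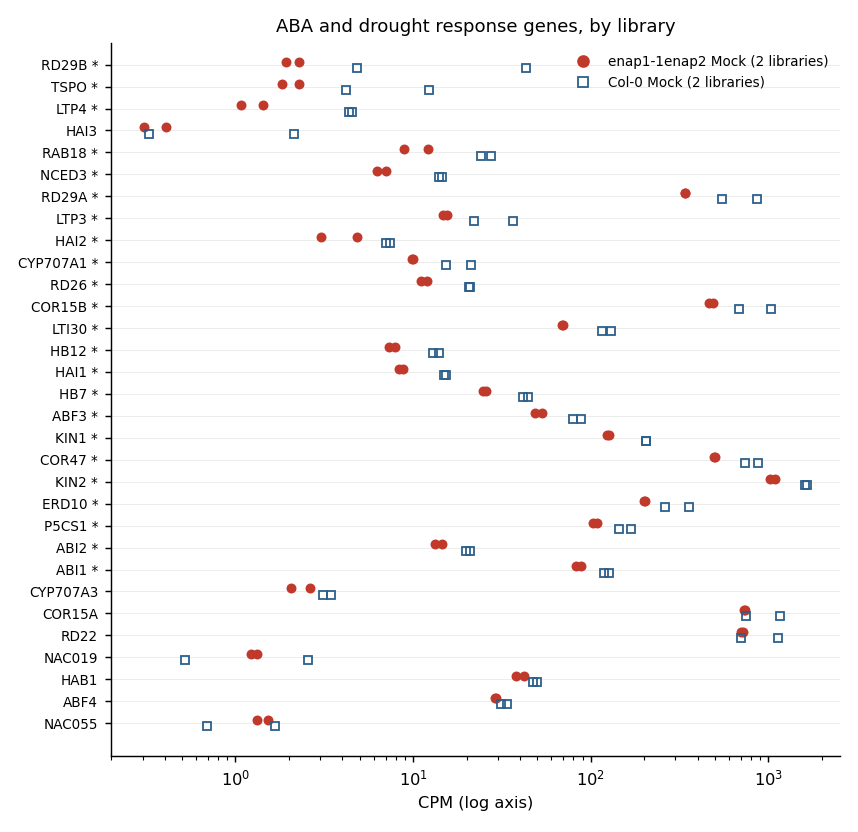
Levels of the 31 ABA and drought response genes in each mock library, in CPM on a log axis, with the enap1-1enap2 Mock libraries named before the Col-0 Mock libraries. A star marks the 23 genes with an adjusted p below 0.05, all lower in enap1-1enap2 Mock. RD29B stands out by the distance between its 2 Col-0 Mock points, 43.2 and 4.82 CPM, whereas those of RD26 nearly coincide at 21.0 and 20.7 CPM.

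The ACGTG core of the ABA-responsive element was looked for in the 250 bases before the annotated start of each gene, as ACGTG or its reverse complement CACGT, so that the palindrome CACGTG counts as 2 overlapping cores. The windows of 4 falling genes are shown as examples with different numbers of cores, from none to 3, upstream of the products, the regulator and the synthetic enzyme described above. They are written 5′ to 3′ on the strand of the gene, with cores in capitals, from the TAIR10 genome: RAB18 at chr5:26519448-26519697, RD20 at chr2:14146556-14146805, RD26 at chr4:13709171-13709420 and NCED3 at chr3:4834016-4834265, all on the minus strand.
RAB18: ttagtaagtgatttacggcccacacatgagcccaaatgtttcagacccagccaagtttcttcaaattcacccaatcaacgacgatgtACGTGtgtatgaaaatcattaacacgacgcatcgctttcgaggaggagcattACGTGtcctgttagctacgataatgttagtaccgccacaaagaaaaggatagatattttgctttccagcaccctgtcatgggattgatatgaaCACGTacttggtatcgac
RD20: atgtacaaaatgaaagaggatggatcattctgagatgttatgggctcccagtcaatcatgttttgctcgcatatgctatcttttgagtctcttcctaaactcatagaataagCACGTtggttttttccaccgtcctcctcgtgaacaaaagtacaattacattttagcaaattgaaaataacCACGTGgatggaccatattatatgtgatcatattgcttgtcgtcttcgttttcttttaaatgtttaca
RD26: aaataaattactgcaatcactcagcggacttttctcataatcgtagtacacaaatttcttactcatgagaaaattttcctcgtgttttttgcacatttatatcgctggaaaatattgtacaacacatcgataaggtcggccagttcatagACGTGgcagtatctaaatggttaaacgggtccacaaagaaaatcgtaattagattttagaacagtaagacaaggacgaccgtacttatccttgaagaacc
NCED3: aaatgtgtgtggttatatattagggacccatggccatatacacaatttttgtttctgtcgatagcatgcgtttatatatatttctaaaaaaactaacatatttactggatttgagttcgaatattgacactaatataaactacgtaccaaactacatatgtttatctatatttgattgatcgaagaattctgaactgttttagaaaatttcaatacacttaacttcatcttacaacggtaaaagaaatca
RAB18 and RD20 have 3 cores each in this window, RD26 has 1 and NCED3 has none, although all 4 genes were lower in the double mutant.

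Over all tested genes with a window, 5173 of 21613 (23.9%) had at least 1 core and 9.93% had 2 or more. In the ABA and drought list 15 of 31 (48.4%) had at least 1. Of the genes called lower in enap1-1enap2 Mock, 89 of 206 (43.2%) had at least 1 core and 31.1% had 2 or more, and of those called higher 22 of 84 (26.2%) had at least 1. For the calls made also without either Col-0 Mock library, the share with a core was 46.9% (45 of 96) for the falls and 33.3% (18 of 54) for the rises. These shares describe letters in a window and not binding.

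Several genes known to be induced by low iron, by low sulfur or by nitrate were higher in the mutant. In the iron deficiency list 4 of 18 tested genes were called higher and none lower, beside 0.389% and 0.953% of all genes. FRO2, the ferric chelate reductase of the root surface, measured 9.09 and 8.62 CPM in enap1-1enap2 Mock, against 1.91 and 1.66 CPM in Col-0 Mock, a 4.98-fold difference (log2 fold change 2.32 ± 0.207 SE, adjusted p = 1.4e-05). IRT1, the main transporter that takes ferrous iron into the root, measured 13.7 and 12.9 CPM in enap1-1enap2 Mock, against 3.24 and 3.93 CPM in Col-0 Mock, a 3.7-fold difference (log2 fold change 1.89 ± 0.225 SE, adjusted p = 0.00017). Both genes were clear of the wild-type spread, by a wide margin.

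The other members called in the iron list were less abundant. CYP82C4, a cytochrome P450 of coumarin synthesis, measured 3.71 and 3.51 CPM in enap1-1enap2 Mock, against 0.940 and 0.608 CPM in Col-0 Mock (log2 fold change 2.23, adjusted p = 0.0028). AT3G12900, an oxygenase that uses ferrous iron, measured 1.57 and 2.06 CPM in enap1-1enap2 Mock, against 0.157 and 0.203 CPM in Col-0 Mock (log2 fold change 3.29, adjusted p = 0.013). Of the 31-base stretches of CYP82C4, 22.1% occur more than once in the genome. The groups did not overlap for either gene, but the call for CYP82C4 was lost without the first mutant library (log2 fold change 2.18) and that for AT3G12900 without either (3.48 and 3.10). The remaining 14 tested members of the iron list did not pass.

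In the sulfur deficiency list, 10 of 16 tested genes passed the adjusted p as higher and 1 as lower. The shares over all genes were 3.47% and 3.7%. The list median was 0.49, beside -0.0124 over all genes. Of the members, 2 were called, both higher, beside 0.389% of all genes. In each fit without 1 of the mutant libraries 5 members passed as higher. SDI1, a repressor of glucosinolate synthesis that marks sulfur shortage, measured 15.0 and 16.3 CPM in enap1-1enap2 Mock, against 7.62 and 5.19 CPM in Col-0 Mock (log2 fold change 1.3 ± 0.156 SE, adjusted p = 0.00017). BGLU28, a beta-glucosidase, measured 5.79 and 4.81 CPM in enap1-1enap2 Mock, against 1.98 and 0.405 CPM in Col-0 Mock, and was called but not clear of the wild-type spread. SULTR1;2, the main sulfate uptake transporter of the root, measured 77.6 and 84.1 CPM in enap1-1enap2 Mock, against 40.3 and 43.7 CPM in Col-0 Mock (log2 fold change 0.94 ± 0.0885 SE, adjusted p = 2.2e-05). LSU1, LSU2 and LSU3, named for their response to low sulfur, rose by 0.45, 0.40 and 0.84 on the log2 scale (LSU2 did not pass without the second Col-0 Mock library, adjusted p = 0.065), and APR3, which reduces activated sulfate, by 0.53. The member that fell was SULTR2;1, a sulfate transporter of the vasculature (log2 fold change -0.39, adjusted p = 0.011).

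In the nitrate response list, 9 of 15 tested genes passed as higher and none as lower, with a list median of 0.43, against the same background. NRT2.1, a high-affinity nitrate transporter of the root, was the member past the fold limit, at 41.9 and 41.7 CPM in enap1-1enap2 Mock, against 9.24 and 19.1 CPM in Col-0 Mock (log2 fold change 1.55 ± 0.217 SE, adjusted p = 0.00058). NIA2, the main nitrate reductase, measured 967 and 944 CPM in enap1-1enap2 Mock, against 605 and 680 CPM in Col-0 Mock (log2 fold change 0.57, adjusted p = 0.0094). The next enzyme, nitrite reductase NIR1, and the dual-affinity transporter NRT1.1 rose by 0.63 and 0.57. The list was sensitive to single libraries: 6 members passed without the first Col-0 Mock library and 11 without the second, and 2 passed in each fit without 1 of the mutant libraries. The phosphate starvation list had 1 of 15 tested genes past the adjusted p, the transporter PHT1;1 (log2 fold change 0.79, adjusted p = 0.00024), and 49.9% of its 31-base stretches occur more than once in the genome.

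**Figure D3:**
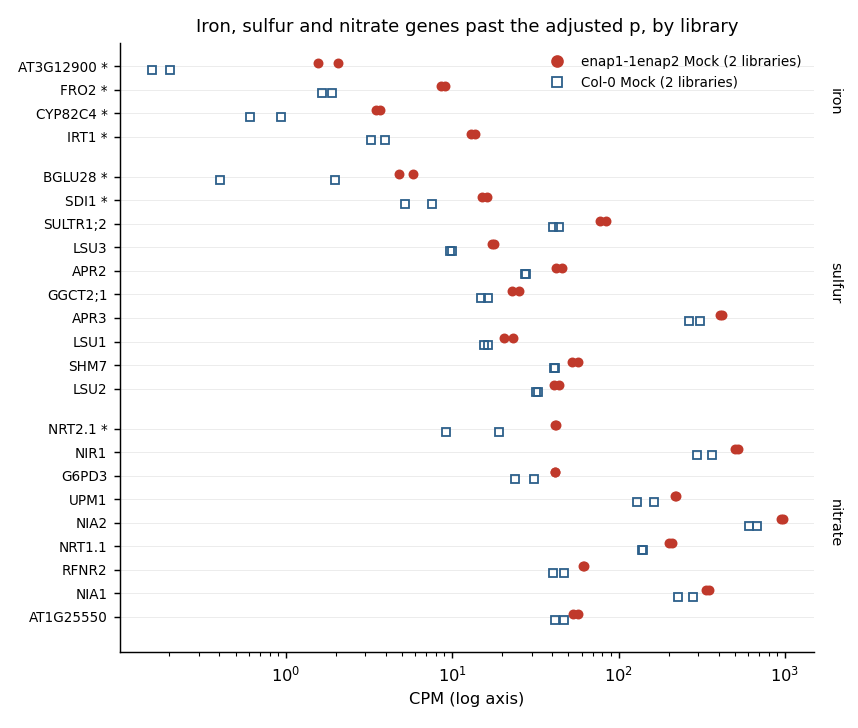
Levels of the iron, sulfur and nitrate list members that were higher in enap1-1enap2 Mock at an adjusted p below 0.05 (4, 10 and 9 genes), in CPM on a log axis, by mock library. A star marks the genes also past the fold limit. The enap1-1enap2 Mock points of FRO2 and IRT1 lie well to the right of the Col-0 Mock points.

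The most significant rises among genes averaging 5 CPM or more included genes of several functions besides QQS and FRO2. UGT74E2, a glucosyltransferase for the auxin precursor indole-3-butyric acid and 1 of the genes the study follows, measured 76.6 and 79.3 CPM in enap1-1enap2 Mock, against 28.5 and 28.9 CPM in Col-0 Mock, a 2.71-fold difference (log2 fold change 1.44 ± 0.0956 SE, adjusted p = 6.8e-07). AT2G36780, another UDP-glycosyltransferase, measured 14.4 and 13.8 CPM in enap1-1enap2 Mock, against 2.64 and 1.5 CPM in Col-0 Mock (log2 fold change 2.81). AT1G07400, a small heat shock protein of the HSP20 family, measured 13.8 and 14 CPM in enap1-1enap2 Mock, against 3.45 and 3.81 CPM in Col-0 Mock (log2 fold change 1.93). For these 3 genes every mutant value was above every wild-type value, beside 51.4% of all genes without overlap in either direction. Of the 31-base stretches of AT2G36780, 16.5% occur more than once in the genome. ABCG40, a plasma membrane transporter that imports ABA, measured 25.4 and 26.6 CPM in enap1-1enap2 Mock, against 6.32 and 5.31 CPM in Col-0 Mock (log2 fold change 2.16 ± 0.212 SE, adjusted p = 3.2e-05). MAM3, which lengthens the side chain of glucosinolates, measured 74.1 and 77.3 CPM in enap1-1enap2 Mock, against 33.3 and 34.9 CPM in Col-0 Mock (log2 fold change 1.15).

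The other rises named by significance or size were AT5G48570, a TPR-domain protein (log2 fold change 1.14), AT5G61560, a U-box kinase (1.29), ABR1, an ERF transcription factor that represses ABA responses (2.04), AT1G10585, a bHLH factor (2.39), AT3G23550, a MATE efflux carrier (2.38), and ELI3-2, an aromatic alcohol oxidoreductase (2.43). All 6 were called and clear. DREB2C, a transcription factor of heat and drought responses, measured 14.9 and 15.4 CPM in enap1-1enap2 Mock, against 8.25 and 6.69 CPM in Col-0 Mock (log2 fold change 1.03 ± 0.119 SE, adjusted p = 0.00013). Without the second Col-0 Mock library its log2 fold change was 0.87, below the fold limit.

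Among the falls outside the ABA list, AT3G24420, an alpha/beta-hydrolase, measured 25.7 and 28.5 CPM in enap1-1enap2 Mock, against 89.2 and 102 CPM in Col-0 Mock (log2 fold change -1.82 ± 0.106 SE, adjusted p = 1.8e-07). BAM5, a beta-amylase, measured 3.02 and 3.13 CPM in enap1-1enap2 Mock, against 12.5 and 15.7 CPM in Col-0 Mock (log2 fold change -2.20). AT3G28510, a P-loop nucleotide hydrolase, measured 1.07 and 1.53 CPM in enap1-1enap2 Mock, against 10.2 and 9.89 CPM in Col-0 Mock (log2 fold change -2.98). In each of these 3 genes both mutant values lay far below both wild-type values. AT5G38910, a cupin, and EXPA16, an expansin that loosens cell walls, had log2 fold changes of -2.74 and -1.61. LEA7, a late embryogenesis abundant protein, measured 2.59 and 1.83 CPM in enap1-1enap2 Mock, against 30.5 and 9.28 CPM in Col-0 Mock, and its log2 fold change of -3.12 was -2.03 without the first Col-0 Mock library. KCS2, an enzyme of very long chain fatty acid synthesis, fell by 1.24, with 63.6% of its exon bases inside another gene model. AT1G51090, a heavy-metal-associated protein, fell by 1.18, and AT2G18690, whose product is uncharacterised, fell by 1.1, or by 1.00 and below the fold limit without the first Col-0 Mock library.

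Defence-related lists moved downward for some members only. In the camalexin and indole list, 6 of 13 tested genes passed as lower and 1 as higher, with a median of -0.62. Over all genes tested, the background for each list here, 3.7% passed as lower and 3.47% as higher. CYP82C2, a P450 of indole defence compounds, measured 12.5 and 14.3 CPM in enap1-1enap2 Mock, against 37.0 and 33.4 CPM in Col-0 Mock (log2 fold change -1.39, adjusted p = 0.00011), with 22.5% of its 31-base stretches repeated in the genome. AT1G26380, a berberine bridge-like oxidase, measured 37.4 and 36.4 CPM in enap1-1enap2 Mock, against 79.7 and 73.4 CPM in Col-0 Mock (log2 fold change -1.05), but lost its call with DESeq2 (adjusted p = 0.071) and without the first Col-0 Mock library (log2 fold change -0.99). CYP71A12, which converts indole-3-acetaldoxime, fell by 0.82, and PEN3, a transporter of defence compounds, rose by 0.53. Of 22 tested salicylic acid and defence genes, 4 passed as lower and 1 as higher. PBS3, an enzyme of salicylic acid synthesis, measured 3.86 and 2.44 CPM in enap1-1enap2 Mock, against 8.30 and 6.85 CPM in Col-0 Mock (log2 fold change -1.24, adjusted p = 0.015). CBP60G and WRKY70, regulators of the same pathway, were called at -1.23 and -1.11, and without the first Col-0 Mock library stood at -0.90 and -0.79, no longer called. In the jasmonate list 4 of 23 tested genes passed as lower and none as higher, among them the synthetic enzymes AOC1 (log2 fold change -0.99, adjusted p = 0.0012), AOS (-0.66) and OPR3 (-0.33). No jasmonate gene was called with all libraries, although AOC1 was called without the first Col-0 Mock library (-1.25) and OPR3 did not pass without the second (-0.29, adjusted p = 0.091).

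Some chaperone genes were higher. In the heat shock list 4 of 13 tested genes passed as higher and 2 as lower, beside 3.47% and 3.7% of all genes. BIP3, a chaperone of the endoplasmic reticulum, measured 3.12 and 2.37 CPM in enap1-1enap2 Mock, against 0.365 and 0.405 CPM in Col-0 Mock (log2 fold change 2.82, adjusted p = 0.0011). HSP17.6II, a small heat shock protein, measured 3.25 and 2.44 CPM in enap1-1enap2 Mock, against 0.522 and 0.649 CPM in Col-0 Mock (log2 fold change 2.28, adjusted p = 7.4e-05). Both were low in every library and both were clear of the wild-type spread. In the rapid stress response list 2 of 25 tested genes passed as higher and 5 as lower, against the same background. Of these, 1 rise and 4 falls were called, beside 0.389% and 0.953% of all genes. The called rise was WRKY40, a transcription factor that rises quickly after stress. It measured 8.43 and 6.64 CPM in enap1-1enap2 Mock, against 2.01 and 2.88 CPM in Col-0 Mock (log2 fold change 1.62, adjusted p = 0.0003). Among the called falls, CML37 had a log2 fold change of -1.61. CML37 was not clear of the wild-type spread and stood at -0.97 without the first Col-0 Mock library. ZAT12, a zinc finger factor, fell by 0.90 (adjusted p = 9.7e-05) and was not called.

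Genes of the ethylene pathway and of histone acetylation, processes to which ENAP1 has been linked, gave small differences. EIN2 measured a log2 fold change of 0.25 (adjusted p = 0.072), or 0.30 without the first Col-0 Mock library (adjusted p = 0.024), and EIN3, the transcription factor downstream of it, 0.06. Of 24 tested ethylene genes, EBF2 passed as higher (0.29), and ACS6 and HCHIB as lower (-0.56 and -0.46), beside 3.47% and 3.7% of all genes. EBF2 did not pass without the second Col-0 Mock library (0.25, adjusted p = 0.1). HCHIB was not clear of the wild-type spread and did not pass without the first (-0.24, adjusted p = 0.25). Of 23 tested histone acetylation enzymes, 2 passed, both as higher. HAC4, an acetyltransferase, had a log2 fold change of 0.67 (adjusted p = 0.0044). HDT4, a plant-specific histone deacetylase, measured 82.0 and 87.2 CPM in enap1-1enap2 Mock, against 62.3 and 70.9 CPM in Col-0 Mock (log2 fold change 0.34, adjusted p = 0.037), and without the first Col-0 Mock library it did not pass (log2 fold change 0.25, adjusted p = 0.12). The sirtuin-type deacetylases SRT1 and SRT2 measured -0.13 and 0.07. MYB44, a transcription factor of the ABA response, had a log2 fold change of -0.28 that did not pass (adjusted p = 0.074) but passed without the first Col-0 Mock library (-0.36, adjusted p = 0.015), and 48.4% of its exon bases lie inside another gene model. RD28, an aquaporin, measured 47.3 and 45.4 CPM in enap1-1enap2 Mock, against 62.5 and 81.0 CPM in Col-0 Mock (log2 fold change -0.63, adjusted p = 0.011), with 21.5% of its 31-base stretches repeated in the genome. Of the 10 genes the study follows, 2 were called, both higher, beside 0.389% of all genes called higher and 0.953% called lower. Some of these genes may have been chosen with the same samples, so their count is not taken as independent evidence.

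In the mitochondrial stress and detoxification list 5 of 13 tested genes passed as higher and 2 as lower. Over all genes tested, the background for each list here, 3.47% passed as higher and 3.7% as lower. UGT74E2, AT5G09570 and AT5G51440 were called higher and GSTU25, a glutathione transferase, lower. The calls for AT5G51440 (log2 fold change 1.17) and GSTU25 (-1.07) were lost to the fold limit without the first Col-0 Mock library, at 0.94 and -0.89. In the low oxygen list 1 of 17 passed as higher and 3 as lower, and in the circadian clock list 2 of 20 passed in each direction. Of the clock falls, CCA1 measured 0.406 and 0.458 CPM in enap1-1enap2 Mock, against 5.48 and 0.770 CPM in Col-0 Mock. CCA1 was called (log2 fold change -2.81) but was not clear, and stood at -0.85 without the first Col-0 Mock library. In the flavonoid list 2 of 20 passed as lower, the regulators PAP1 and PAP2 (log2 fold change -0.57 and -0.78). Neither passed without the second Col-0 Mock library (-0.44 and -0.62). In the glucosinolate list 2 of 22 passed as higher, MAM3 and CYP79F2 (0.43), the second of which did not pass without the first or the second Col-0 Mock library (adjusted p = 0.092 and 0.086). With all libraries no gene passed of 14 for cell division or of 19 root markers, although single genes passed as lower when a Col-0 Mock library was left out, among them KNOLLE and WOX5 without the first, and CASP2 and TIP2;3 without the second. Of 19 leaf markers 2 passed as lower, the antenna proteins LHCB1.4 and LHCB2.1 (-0.55 and -0.35). Without the first Col-0 Mock library 10 of the 19 leaf markers passed as lower, and without the second LHCB2.1 did not (adjusted p = 0.062).

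A small set of genes owed its called fall to the first Col-0 Mock library. PORA, the protochlorophyllide reductase of etiolated seedlings, measured 0.355 and 0.229 CPM in enap1-1enap2 Mock, against 50.5 and 0.527 CPM in Col-0 Mock. ICL, the isocitrate lyase with which germinating seedlings use stored oil, measured 6.4 and 6.18 CPM in enap1-1enap2 Mock, against 223 and 10.3 CPM in Col-0 Mock. CRA1, a seed storage globulin, measured 0.152 and 0.0763 CPM in enap1-1enap2 Mock, against 40.2 and 0.365 CPM in Col-0 Mock. In each, the second Col-0 Mock library was far nearer to the mutant libraries than to the other wild-type library. Their log2 fold changes of -6.37, -4.21 and -7.33 became -0.81, -0.72 and -1.58 without the first Col-0 Mock library, none of them called. For MLS, the malate synthase of the same oil-use pathway, and AT5G44440, a berberine bridge-like enzyme, the direction turned: -3.30 became 0.42 (adjusted p = 0.52) and -7.33 became 1.96 (adjusted p = 0.48). Of the 11 seed marker genes 4 were tested, and all 4 were called lower with all libraries but none without the first Col-0 Mock library. EM1, a late embryogenesis abundant protein of seeds, had no count in either mutant library and 3.79 and 0.0811 CPM in Col-0 Mock. The plot of genes that split the Col-0 Mock libraries sets these beside genes that do not.

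**Figure D4:**
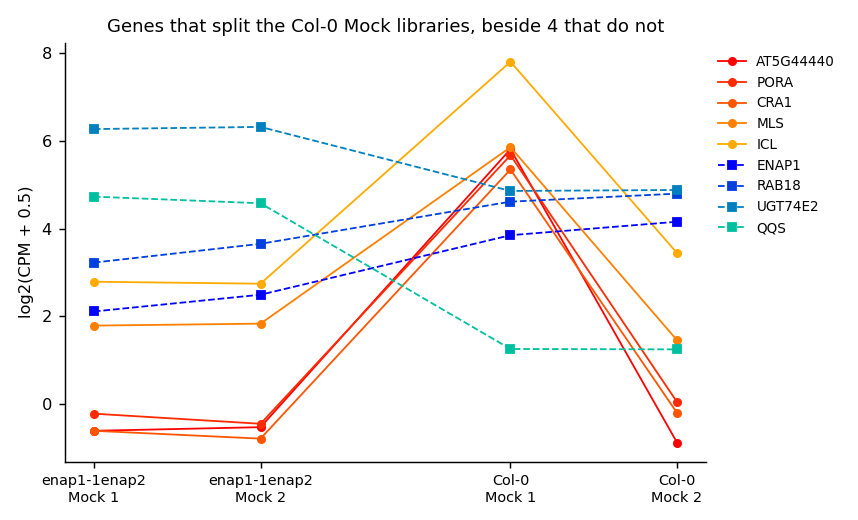
Levels in the 4 mock libraries, as log2(CPM + 0.5), of the 5 genes that differ most between the Col-0 Mock libraries (solid lines) and of ENAP1, RAB18, UGT74E2 and QQS (dashed lines). The solid lines peak at the first Col-0 Mock library, where ICL measured 223 CPM, and drop back in the second, whereas the dashed lines separate the genotypes.

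The called genes with the smallest p that were not clear of the wild-type spread included late embryogenesis genes. AT3G15670, a late embryogenesis abundant protein, measured 0.660 and 0.611 CPM in enap1-1enap2 Mock, against 27.9 and 5.03 CPM in Col-0 Mock. LEA4-5, of the same class, measured 5.08 and 5.88 CPM in enap1-1enap2 Mock, against 25.3 and 11.2 CPM in Col-0 Mock, and lost its call without the first mutant library (log2 fold change -1.63), as did AT5G07330 (-2.89). DIP2 measured 3.15 and 2.90 CPM in enap1-1enap2 Mock, against 6.06 and 11.4 CPM in Col-0 Mock. In these genes the groups did not overlap, but the wild-type libraries lay farther from each other than the nearer of them lay from the mutant. AT5G22470 had no count in either mutant library and 1.72 and 0.486 CPM in Col-0 Mock. The Col-0 Mock mean was 11.6 times the mean of the floors of 3 counts in the mutant libraries. That mean leaned on the first Col-0 Mock library, so 11.6 is not a lower bound for each wild-type library.

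The basal differences were then set beside those under dehydration, measured in the other 4 libraries. There, 218 genes (1.01%) were called higher and 302 (1.4%) lower in enap1-1enap2 than in Col-0. With the adjusted p alone, 1408 of the 21614 tested genes were higher and 1754 lower there. Of the 290 genes called under mock, 237 were not called under dehydration, 21 were called in the same direction and 32 in the opposite one. Of the 84 basal rises, 11 were called higher and 17 lower under dehydration, and of the 206 basal falls 10 were called lower and 15 higher. Without the first mutant mock library the genes called under mock and dehydration in the same and the opposite direction numbered 10 and 16, without the second 13 and 17, and without the second Col-0 Mock library 21 and 48. The medians under dehydration were -0.29 for the basal rises and 0.30 for the basal falls, and did not change when the 9 genes with no count in a dehydration group were put at their bound. A fold change above 0 under dehydration was found for 64.6% of the basal falls (133 genes), beside 50.7% of all genes, and one below 0 for 61.9% of the basal rises. The interaction of genotype and treatment passed for 3639 genes (16.8%) and for 203 of the 290, but the interaction contains the mock libraries that chose the 290 genes, so nothing is read from that count.

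**Figure D5:**
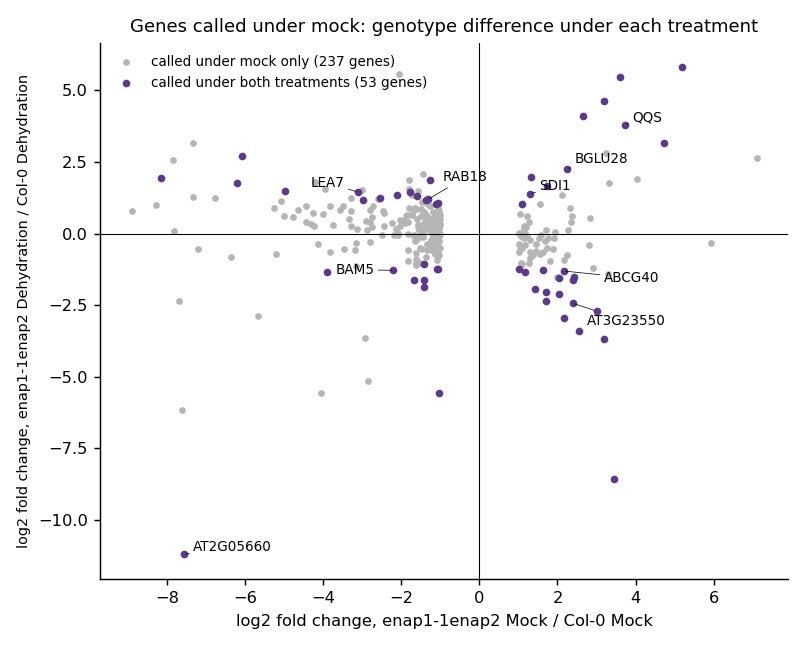
Log2 fold change of enap1-1enap2 over Col-0 under mock (x axis) and under dehydration (y axis) for the 290 genes called under mock. Purple points were called under both treatments (53 genes) and grey points under mock only (237 genes). QQS, SDI1 and BGLU28 are high on both axes, AT2G05660 is low on both, and RAB18, LEA7, ABCG40 and AT3G23550 have opposite signs.

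Genes that kept their direction included QQS and AT2G05660. QQS had a log2 fold change of 3.80 under dehydration, beside 3.72 under mock, and AT2G05660 had no count in either dehydrated mutant library, against 10.8 and 7.13 CPM in Col-0 Dehydration. SDI1 and BGLU28 of the sulfur list were likewise called higher in both, at 1.38 and 2.26 under dehydration. There, 9 of the 16 sulfur genes passed as higher, beside 1408 of all 21614 genes, with a list median of 0.45. In the iron list FRO2 remained past the adjusted p as higher (log2 fold change 0.88, adjusted p = 0.0055), whereas IRT1 did not pass (-0.53, adjusted p = 0.13).

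The ABA and drought list stood on the other side of 0 under dehydration. Its median was 0.22, with 25 of 31 members above 0, 11 past the adjusted p as higher and 1 as lower. Of all 21614 genes tested, 1408 passed as higher and 1754 as lower. RAB18 measured 2104 and 2433 CPM in enap1-1enap2 Dehydration, against 943 and 1036.5 CPM in Col-0 Dehydration (log2 fold change 1.2, adjusted p = 1.7e-05), so that its order between the genotypes was the reverse of the basal order. LTP4 and NCED3 had log2 fold changes of 0.88 and 0.47 under dehydration (adjusted p = 2.5e-05 and 0.0017). ABCG40 and UGT74E2, higher in the unstressed mutant, were lower under dehydration, at -1.31 and -0.61. The nitrate list also changed side, with a median of -0.51 and 9 of 15 genes past the adjusted p as lower under dehydration. The jasmonate list was lower under both, with medians of -0.33 and -0.84. Under dehydration 10 of its 23 tested genes were called lower, beside 1.4% of all genes.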

How the data were processed

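RNA-seq was made from whole seedlings with the NEBNext Ultra RNA kit, 2 libraries per group. According to the labels and the deposited file header, the authors trimmed reads with Trim Galore 0.6.7, checked them with FastQC, aligned them to TAIR10 and counted reads per gene over Araport11 exons with featureCounts 2.0.1, without strand and leaving out reads that hit several places or several genes. The methods name bowtie2 as aligner, whereas the file names in the header have the form that STAR writes. The deposited values were raw counts for 36799 genes, used as deposited.

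Counts were scaled by TMM, filtered with filterByExpr and tested with edgeR 4.0.16 (glmQLFit, glmQLFTest; R 4.3.3) on a model of the 4 groups over all 8 libraries, with Benjamini-Hochberg adjustment over 21614 genes. Genes were called at p below 0.01, adjusted p below 0.05 and an absolute log2 fold change above 1. CPM values use the TMM-scaled library sizes. Levels were compared with log2(CPM + 0.5) for the spread of the wild type. The test was tried on simulated counts with known changes. Alternatives were another scaling (RLE size factors, library size alone), another or no count filter, DESeq2 1.42.0, the 4 mock libraries alone, a replicate block, each mock library left out, and other thresholds.

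Named genes were ENAP1 and ENAP2, the genes the study follows, the 12 rises and 12 falls with the smallest p and the 5 with the largest change among called genes clear of the wild-type spread averaging 5 CPM or more, the 5 called genes with the smallest p that were not clear, the 5 genes that most split the Col-0 Mock libraries, and up to 4 members per list with the smallest p. Other list members, and the genes in the closing observations, were named after their values were seen. The comparison, the lists and the rule were chosen with earlier results of these data known. Of the genes, 36632 matched RefSeq TAIR10.1 by locus, and 99.5% of those had the same start and end. Windows of 250 bases were read from that genome. Shares of repeated sequence are shares of 31-base stretches of a gene's exons that occur more than once in the genome. Figures were drawn with matplotlib 3.10.9 (Python 3.11.15).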

Additional observations from a re-analysis of the deposited data

Results flagged for a closer look

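The genotype difference under dehydration departed from that under mock, by the interaction term of the edgeR quasi-likelihood fit with Benjamini-Hochberg adjustment, for 203 of the 290 genes called under mock. The interaction contains the mock libraries that chose these genes, and so it is given as a description. A positive value means that the mutant stood higher relative to Col-0 under dehydration than under mock.

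Among genes with a basal rise, the interaction was -2.05 on the log2 scale for UGT74E2, -1.67 for DREB2C, -1.87 for AT1G07400, -3.19 for AT2G36780, -1.43 for FRO2, -1.53 for AT5G61560 and -0.891 for AT5G48570. Larger negative values were found for ABCG40 (-3.48), ABR1 (-3.60), AT1G10585 (-4.02), ELI3-2 (-3.97) and AT3G23550 (-4.82), and MAM3 had -1.32. HDT4 had -0.547, EIN2 -0.417 and RD28, which was lower in the mutant under mock, -1.25.

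Among genes with a basal fall and a clear separation, the interaction was 0.852 for ENAP1, 1.23 for AT3G24420, 0.919 for BAM5, 3.72 for AT5G38910, 4.16 for AT3G28510, 1.65 for RD20, 1.3 for KCS2, 1.13 for AT1G51090, 1.55 for AT2G18690, 1.56 for NCED3, 1.41 for EXPA16 and 4.56 for LEA7. For falls that were not clear of the wild-type spread it was 5.47 for AT3G15670, 1.43 for DIP2, 3.84 for AT5G07330, 2.42 for LEA4-5 and 6.01 for ICL. AT5G44440 had 10.5 and AT5G22470 10.1, fitted values that are no bound because AT5G22470 had no count in the mock mutant and AT5G44440 few.

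By list, the interaction passed for 24 of 31 ABA and drought genes and 10 of 15 nitrate genes. It passed for 4 of 13 camalexin and indole genes, 4 of 18 iron genes and 3 of 16 sulfur genes. Over all genes tested 16.8% passed, so the sulfur and iron counts were near the background.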

How the results depend on the processing

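The count of 290 called genes was 290 with RLE size factors, 272 with library size alone, 294 with the other count filter, 415 without a filter, 271 with DESeq2 (258 of them shared) and 297 with the 4 mock libraries alone. It was 168 with an absolute log2 fold change above 1.5, 1550 with the adjusted p alone and 150 for calls made also without either Col-0 Mock library. Leaving out single mock libraries gave 126 to 421 called genes. The same alternatives gave 10 to 22 genes called in the same direction under dehydration and 16 to 48 in the opposite one, and no filter gave 34 and 63. The genotype by treatment interaction, 3639 genes, was 1801 to 4282 in those fits with 1 library left out and 3379 to 4392 in the others. With 1 library left out, members past the adjusted p ranged over 13 to 26 for ABA and drought genes (lower), 5 to 10 for sulfur, 2 to 11 for nitrate, 2 to 4 for iron (all higher) and 4 to 6 for camalexin (lower), and without a filter they were 27 for ABA and drought, 11 for nitrate, 6 for iron and 8 for camalexin. The count of 216 called genes clear of the wild-type spread was 198 to 287 over its alternatives. AT5G44440 ranged over -8.35 to 1.96 and MLS over -4.27 to 0.42, both reversed without the first Col-0 Mock library, where their wild-type level rests on the second library alone. Of all values of the 124 named genes, 1296 kept their direction and side of the thresholds, 58 lost a call, 6 gained one and 2 reversed. With a replicate block 281 genes were called, 279 of them shared, and MLS, AT4G27450 and EM1 lost their calls. Same-numbered libraries of the mock groups deviated together only with r = 0.0254 over 15441 genes (other pairs of groups -0.0963 to 0.133), so the numbers were not taken as pairs.

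With 2 libraries per group every call rests on a spread shared across genes and groups. Where a single mock library of either genotype was left out, the lone library of its group was assumed to vary like the other groups. The cause of changes with a setting was not tested. Genes near the floor of 0.0608 to 0.114 CPM, such as EM1, cannot be sized at this depth.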

Other observations

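Some called genes outside the lists, picked after their values were seen, add to the basal picture. GPT2, a glucose 6-phosphate transporter of plastids, measured 5.94 and 4.81 CPM in enap1-1enap2 Mock, against 1.93 and 1.82 CPM in Col-0 Mock (log2 fold change 1.53). ASN1, a glutamine-dependent asparagine synthetase that marks low carbon status, measured 18.3 and 21.4 CPM in enap1-1enap2 Mock, against 6.47 and 7.90 CPM in Col-0 Mock (log2 fold change 1.46). PYL5, an ABA receptor, measured 20.7 and 22 CPM in enap1-1enap2 Mock, against 10.0 and 11.2 CPM in Col-0 Mock (log2 fold change 1.01), a rise beside the falls of most ABA response genes. Without the first Col-0 Mock library it was below the fold limit (0.93). UGT85A1, a glycosyltransferase of cytokinins, measured 85.2 and 84.5 CPM in enap1-1enap2 Mock, against 34.7 and 40.2 CPM in Col-0 Mock (log2 fold change 1.18), and had a log2 fold change of -1.34 under dehydration.

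AT3G29633 differed between the genotypes under both treatments. It measured 7.16 and 8.09 CPM in enap1-1enap2 Mock, against 0.157 and 0.243 CPM in Col-0 Mock. Its log2 fold change was 5.19 ± 0.408 (SE, edgeR quasi-likelihood adjusted p = 3.9e-06) under mock and 5.82 (adjusted p = 7.4e-06) under dehydration.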
